A study of Mus musculus with 6 samples.

Results

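The genes described here encode 42 plasma proteins that hepatocytes secrete, among them albumin and other carriers, apolipoproteins, coagulation factors, protease inhibitors and complement proteins. They were chosen as a named list, and 41 of them were found under their own symbol among the 20856 genes with values in the deposited table. The remaining gene, *C5*, is listed as *Hc*. It had at most 1 read in any line and is left out of the counts below. The samples were 6 cell lines derived from mouse liver tumors, 3 of the genotype *Myc*; sg*Trp53* (labelled Myc;sgp53/Cas9) and 3 of the genotype *Myc*; sg*Kmt2c* (labelled Myc;sgMll3/Cas9). Each line came from a different mouse. Young adult female C57BL/6 mice had received plasmids in the liver by hydrodynamic tail vein injection: a *Myc* transposon in both groups, together with a px330 plasmid that expresses Cas9 and a guide RNA against *Trp53* in one group and against *Kmt2c* (the gene of the histone methyltransferase MLL3) in the other. Both genotypes therefore carry the *Myc* transposon, and no group was left with neither gene targeted. The lines were untreated and were grown in serum-containing medium on collagen-coated plates until no fibroblasts were seen. RNA was sequenced once per line.

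The liver makes most of the proteins that circulate in plasma. Their genes are among the most active genes of a mature hepatocyte, and they are switched on together by transcription factors such as HNF4A, the FOXA proteins and C/EBP proteins. Several of them are also acute-phase genes, whose transcription rises or falls when cytokines such as IL-6 reach the liver. Outside the liver some of the proteins have a further source, for example apolipoprotein E and complement C3 in macrophages.

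Levels are RPKM, reads scaled by transcript length and by the counted reads of the library, and 3680068 to 6878625 reads were counted per line. *Trp53* RNA ranged over 17.2 to 19.4 RPKM in sg*Trp53* and over 92.2 to 124 RPKM in sg*Kmt2c*. *Kmt2c* RNA overlapped between the genotypes, at 18.4 to 24.2 and 9.51 to 25.0 RPKM. A single line, sg*Kmt2c* replicate 1, stood apart from the others of its genotype over all genes, with a chi-square per gene of 80.3 and 76.2 against replicates 2 and 3, which differed from each other by 34.0. Markers of the mature hepatocyte were mostly missing. Of 20 hepatocyte enzyme genes, 3 to 6 reached 1 RPKM per line, glucose-6-phosphatase *G6pc* had no read in any line, and *Cps1*, the first enzyme of the urea cycle, was at most 1.38 RPKM. The lines thus lacked most defining enzyme markers of the cell type whose secreted proteins are examined, and the name of the group refers to the normal source of the proteins and not to the identity of these lines.

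The plasma protein genes took a small share of every library. Per line, 0.0453%, 0.0302% and 0.0277% of counted reads fell on the 41 genes in sg*Trp53* replicates 1 to 3, and 0.670%, 0.0161% and 0.0552% in sg*Kmt2c* replicates 1 to 3. The share in sg*Kmt2c* replicate 1 had an exact 95% binomial interval of 0.663% to 0.677%, and the lowest share, in sg*Kmt2c* replicate 2, had one of 0.0149% to 0.0175%. These intervals cover counting error only. The sg*Kmt2c* lines thus held both the highest and the lowest share of all 6 lines. *Apob* alone made up 73.3% of the plasma protein reads in sg*Kmt2c* replicate 1, and without it the share there was 0.179%, still above every other line. In bulk RNA, fewer cells with a transcript and less of it per cell cannot be told apart.

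At a level of at least 1 RPKM, 16, 16 and 12 of the 41 genes were seen in sg*Trp53* replicates 1 to 3 and 23, 10 and 17 in sg*Kmt2c* replicates 1 to 3. Over all lines, 31 genes reached 1 RPKM somewhere, 14 reached 10 RPKM, and 4 (*Apob*, *Rbp4*, *Apoc2* and *Hpx*) reached 100 RPKM. Only 7 genes were at 1 RPKM or more in every line, and *Rbp4* was the only one at 10 RPKM or more in every line. At the other end, 9 genes had at most 3 reads in each line, and *F9* and *Plg*, the genes of coagulation factor IX and plasminogen, had none.

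**Figure D1:**
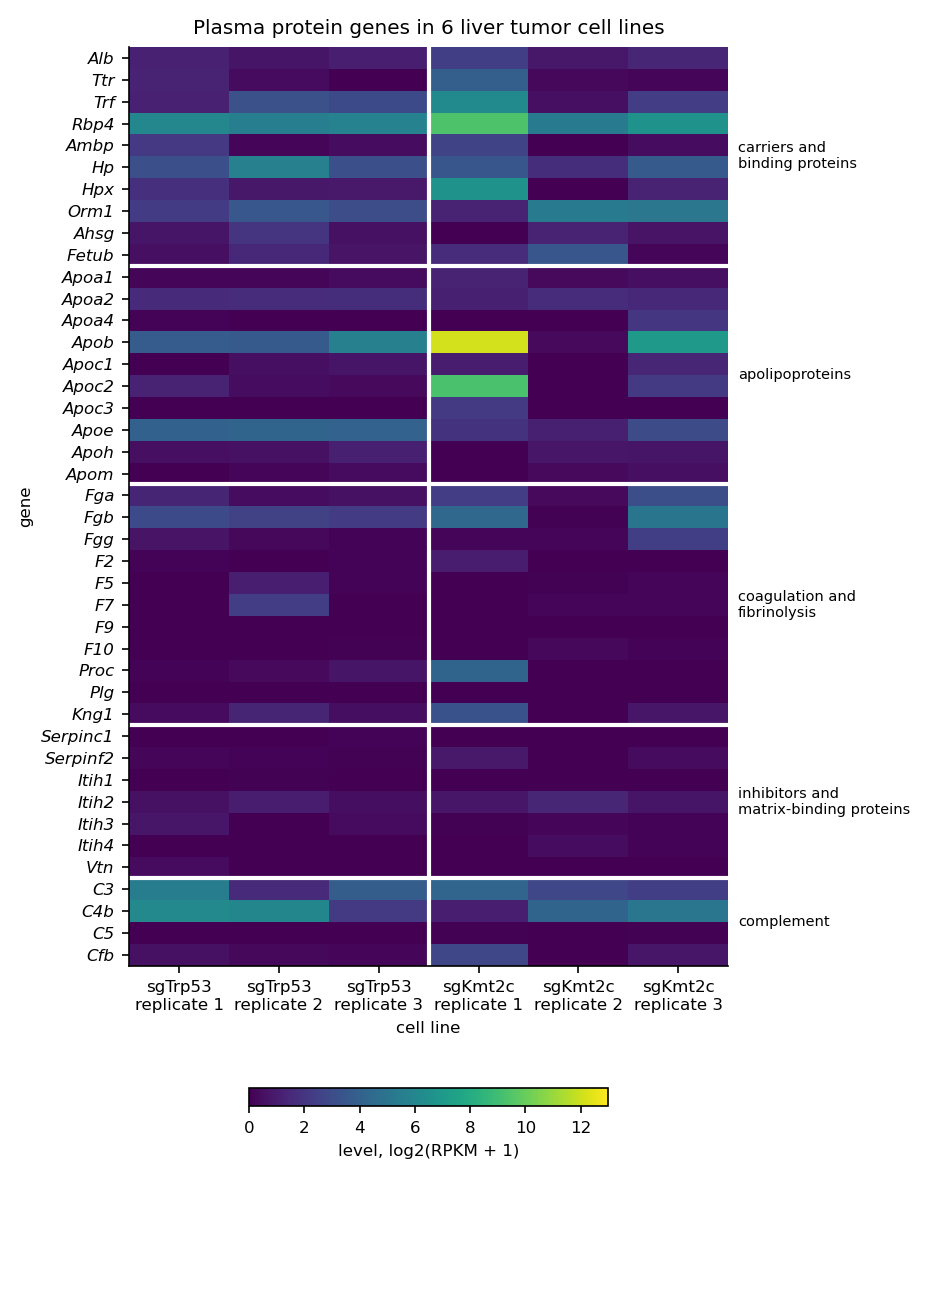
Level of each plasma protein gene (rows, grouped by role, *C5* listed as *Hc*) in each of the 6 lines (columns), as log2(RPKM + 1) on the colour scale. The brightest cells, *Apob* at 4385, *Rbp4* at 664 and *Apoc2* at 609 RPKM, all lie in the column of sg*Kmt2c* replicate 1, and most rows of coagulation factors and inhibitors are dark in every column.

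A single line carried the highest levels. Among the 31 genes that reached 1 RPKM, sg*Kmt2c* replicate 1 was the highest of the 6 lines for 14, where 24.0% of all 13401 genes at that level had their highest value in this line. It was at least 4-fold above every other line, on the RPKM + 1 scale, for 9 of the 31 genes (*Apob*, *Apoc2*, *Rbp4*, *Hpx*, *Trf*, *Ttr*, *Proc*, *Apoc3* and *Cfb*), against 2.19% of all genes. The listed length of *Cfb* is 35.4% of its longest transcript, and on the longest length it was 2.46-fold above the next line on this scale, which leaves 8 genes. The reverse held for sg*Kmt2c* replicate 2, the lowest line or tied for the lowest in 17 of the 31 genes, where the share of all genes was 21.5%. Its library was the smallest, at 3680068 counted reads, and its count includes ties between lines without a read. These counts were chosen after the values of the lines had been seen, and they compare lines and not genotypes.

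**Figure D2:**
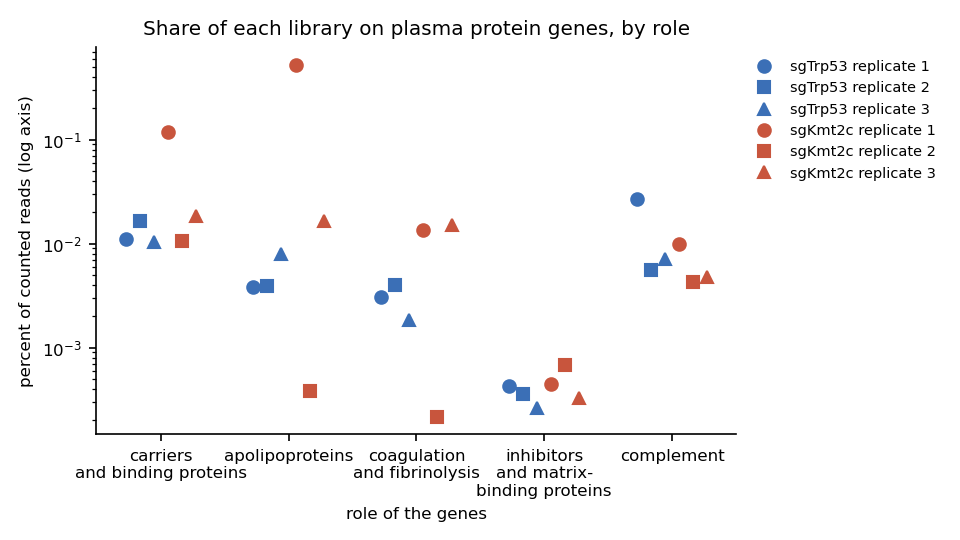
Percent of counted reads (log axis) that fell on the plasma protein genes of each role in each line, with blue symbols for sg*Trp53* and red symbols for sg*Kmt2c*, and circles, squares and triangles for replicates 1 to 3. Apolipoprotein genes spanned the widest range, from 0.000380% in sg*Kmt2c* replicate 2 to 0.527% in sg*Kmt2c* replicate 1.

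Among the apolipoproteins, *Apob* encodes the structural protein of very-low-density and low-density lipoproteins, and *Apoc2* the cofactor of lipoprotein lipase. *Apob* was 12.9, 11.8 and 48.8 RPKM in sg*Trp53* replicates 1 to 3 and 4385, 0.243 and 129 RPKM in sg*Kmt2c* replicates 1 to 3. The highest and the lowest line were both sg*Kmt2c* lines, with 23099 reads and 1 read. The table gives *Apob* a transcript length of 1118 bases, 8.02% of its longest coding transcript. On that longest length of 13934 bases the level in sg*Kmt2c* replicate 1 was 352 RPKM, under those of *Rbp4* and *Apoc2* in the same line. Ratios of RPKM between lines do not depend on the length, while those on the RPKM + 1 scale do.

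*Apoc2* was 1.44, 0.330 and 0.255 RPKM in sg*Trp53* against 609, 0 and 3.70 in sg*Kmt2c*. Its level in sg*Kmt2c* replicate 1 was 164 times that of the next line. The table's gene model of *Apoc2* overlaps that of *Apoc4*, another apolipoprotein gene, which was 12.3 RPKM in sg*Kmt2c* replicate 1 and 0 in every other line, and whether the counting used strand is not stated. *Apoc3*, an inhibitor of lipoprotein lipase, had reads in sg*Kmt2c* replicate 1 alone (12 reads, 3.59 RPKM), and *Apoa4* had 24 reads (3.09 RPKM) in sg*Kmt2c* replicate 3 and at most 1 elsewhere. *Apoa1*, the main protein of high-density lipoprotein, was between 0.158 and 0.452 RPKM in 5 lines and 1.44 RPKM in sg*Kmt2c* replicate 1, from 7 reads. *Apoa2* was 1.90, 2.18 and 2.24 RPKM in sg*Trp53* against 1.23, 2.09 and 1.81 in sg*Kmt2c*, from 3 to 8 reads per line. *Apoc1*, *Apoh* and *Apom* had at most 3 reads in each line.

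*Apoe*, which encodes a protein of circulating lipoproteins, followed the opposite pattern. It was 15.5, 17.0 and 16.1 RPKM in sg*Trp53* replicates 1 to 3 and 2.76, 1.17 and 6.92 RPKM in sg*Kmt2c* replicates 1 to 3. The genotypes did not overlap, and sg*Kmt2c* replicate 1, the highest line for *Apoc2*, was under every sg*Trp53* line for *Apoe*. The sequences upstream of these genes are shown because *Apob*, *Apoc2* and *Hpx* (the hemopexin gene) were each highest in sg*Kmt2c* replicate 1, while *Apoe*, a neighbour of *Apoc2*, was low in it. Each is the 250 bases before the RefSeq transcript start (build GRCm38.p6), read 5′ to 3′ on the strand of the gene. They lie at chr12:7977427-7977676 on the plus strand for *Apob*, and on the minus strand at chr7:19677942-19678191 for *Apoc2*, chr7:105600117-105600366 for *Hpx* and chr7:19699189-19699438 for *Apoe*. Capitals mark matches on either strand to 3 short motifs. One is the core promoter element TATAAA. Another is GTTAAT. The last is CCAAT. The last base is next to the transcript start.
Apob: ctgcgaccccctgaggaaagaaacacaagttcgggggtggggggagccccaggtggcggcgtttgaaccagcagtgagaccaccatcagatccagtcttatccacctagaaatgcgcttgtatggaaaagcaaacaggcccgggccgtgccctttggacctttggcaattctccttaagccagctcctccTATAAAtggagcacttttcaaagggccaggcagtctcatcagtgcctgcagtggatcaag
Apoc2: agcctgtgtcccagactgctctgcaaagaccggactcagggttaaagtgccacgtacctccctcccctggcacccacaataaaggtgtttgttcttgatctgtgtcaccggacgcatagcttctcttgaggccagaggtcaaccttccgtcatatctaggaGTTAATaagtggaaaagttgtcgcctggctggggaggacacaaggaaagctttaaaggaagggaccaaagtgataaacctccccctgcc
Hpx: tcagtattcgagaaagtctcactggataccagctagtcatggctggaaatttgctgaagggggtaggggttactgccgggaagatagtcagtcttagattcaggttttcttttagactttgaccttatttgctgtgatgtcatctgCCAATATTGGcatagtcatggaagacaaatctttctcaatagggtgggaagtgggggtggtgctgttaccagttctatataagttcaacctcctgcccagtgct
Apoe: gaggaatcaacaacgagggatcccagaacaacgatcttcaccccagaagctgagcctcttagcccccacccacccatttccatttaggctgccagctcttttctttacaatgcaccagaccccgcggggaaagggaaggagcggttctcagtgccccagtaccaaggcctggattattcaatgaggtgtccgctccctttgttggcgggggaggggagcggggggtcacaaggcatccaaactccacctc
The *Apob* sequence held TATAAA from base 60 to base 55 before the start. The *Apoc2* sequence held GTTAAT from base 89 to base 84, and the RefSeq start used there lies 3482 bases inside the 5′ end of the table's gene model. The *Hpx* sequence held CCAAT on both strands, side by side from base 104 to base 95, and the *Apoe* sequence held none of the 3 motifs. A promoter sequence was matched for 30 of the 41 genes, taking the start nearest the table's gene end. Other matched genes that were highest in sg*Kmt2c* replicate 1 fell on both sides. *Rbp4*, *Alb* and *Ambp* held at least 1 of the 3 motifs, and *Apoa1*, *F2* and *Serpinf2* held none, like *Apoe*. GTTAAT was in 6 of the 30 (20.0%, *Alb*, *Apoc2*, *Fga*, *Fgb*, *Itih1* and *Vtn*) and in 6.43% of all 32851 promoter windows. For TATAAA the shares were 13.3% and 12.4%, and for CCAAT 23.3% and 33.8%. The genes with GTTAAT ranged from *Apoc2*, at 609 RPKM in 1 line, to *Itih1*, with 1 read in all lines together, and a match in the sequence is a description and not a bound site.

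The carriers and binding proteins included *Rbp4*, whose product carries retinol in plasma. It was 64.5, 46.6 and 53.8 RPKM in sg*Trp53* against 664, 41.9 and 102 in sg*Kmt2c*. The other lines thus lay within 41.9 to 102 RPKM, while sg*Kmt2c* replicate 1 was 6.50 times the next. *Hpx*, whose product binds free heme, was 2.44, 0.763 and 0.884 RPKM in sg*Trp53* against 100.2, 0 and 1.42 in sg*Kmt2c*, 41.1 times the next line in sg*Kmt2c* replicate 1. *Trf*, the gene of transferrin, the iron carrier, was 1.26, 8.36 and 6.70 RPKM in sg*Trp53* against 72.5, 0.464 and 4.10 in sg*Kmt2c*. *Ttr*, the gene of transthyretin, which carries thyroid hormone and binds the retinol-binding protein, was 1.35, 0.308 and 0 RPKM against 14.1, 0.223 and 0.192 RPKM. The pattern of these 3 genes was that of *Apoc2*, with a single high line and 5 low ones. *Alb*, the gene of albumin, the most abundant plasma protein, was only 1.28, 0.644 and 1.14 RPKM in sg*Trp53* against 4.36, 0.797 and 1.60 in sg*Kmt2c*. *Ambp*, the gene of the protein that is cut into alpha-1-microglobulin and bikunin, was 3.49 RPKM in sg*Trp53* replicate 1 and 5.36 RPKM in sg*Kmt2c* replicate 1, and at most 0.369 RPKM in the other lines.

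Other carriers were highest in other lines. *Hp*, the gene of haptoglobin, an acute-phase protein that binds hemoglobin, was 7.94, 50.5 and 8.11 RPKM in sg*Trp53* against 10.3, 2.22 and 11.7 in sg*Kmt2c*. *Orm1*, which encodes an acute-phase alpha-1-acid glycoprotein, was 3.81, 10.4 and 7.30 RPKM against 1.37, 40.6 and 34.1 RPKM, so that sg*Kmt2c* replicate 1 was here the lowest line and the other sg*Kmt2c* lines the highest. *Orm1* has near-identical paralogs, and its level is uncertain for that reason. *Fetub*, the gene of fetuin-B, was 0.462, 1.85 and 0.613 RPKM against 2.09, 10.1 and 0.165 RPKM, and its relative *Ahsg* (fetuin-A) had no read in sg*Kmt2c* replicate 1 and its highest level, 2.93 RPKM, in sg*Trp53* replicate 2.

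**Figure D3:**
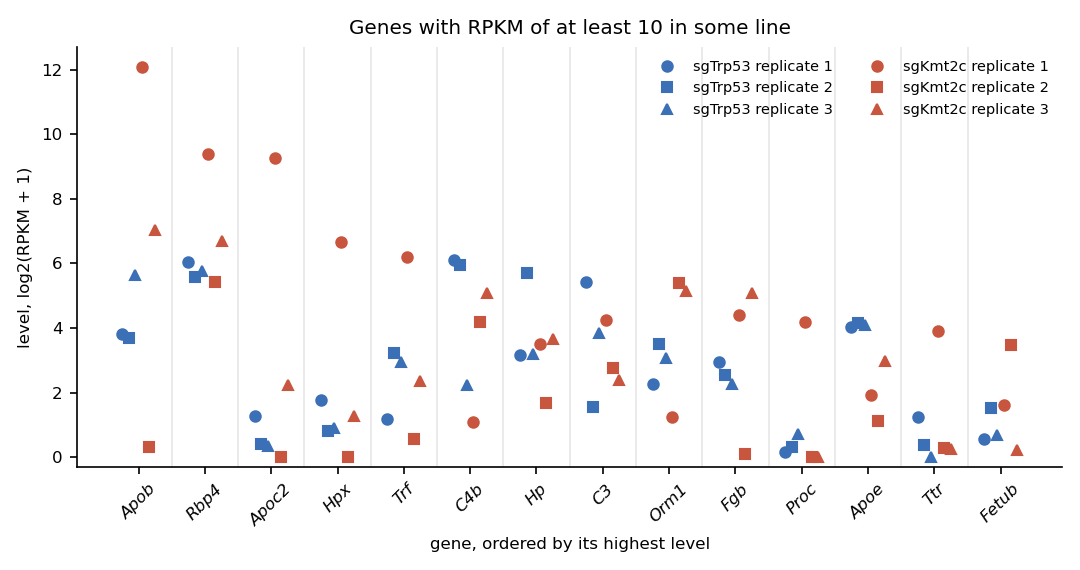
Level, as log2(RPKM + 1), of the 14 genes that reached 10 RPKM in some line, ordered by their highest level, with 1 symbol per line (blue sg*Trp53*, red sg*Kmt2c*). The red circle of sg*Kmt2c* replicate 1 is far above the rest for *Apob*, *Rbp4*, *Apoc2*, *Hpx*, *Trf*, *Proc* and *Ttr*, while it is the lowest symbol for *C4b* and *Orm1*, and for *Apoe* all red symbols lie under all blue ones.

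Of the coagulation genes, the 3 fibrinogen chains shared their highest line. *Fgb*, the beta chain, was 6.63, 4.83 and 3.85 RPKM in sg*Trp53* against 20.1, 0.0712 and 32.5 in sg*Kmt2c*. *Fga*, the alpha chain, was 1.57, 0.361 and 0.488 RPKM against 4.18, 0.260 and 7.64 RPKM. *Fgg*, the gamma chain, was at most 0.580 RPKM in 5 lines and 4.28 RPKM in sg*Kmt2c* replicate 3. All 3 chains were thus highest in sg*Kmt2c* replicate 3, and sg*Kmt2c* replicate 1 had high *Fgb* and *Fga* but a single *Fgg* read. *Proc*, the gene of the anticoagulant protein C, was 0.105, 0.240 and 0.649 RPKM in sg*Trp53* against 17.2, 0 and 0 in sg*Kmt2c*. *Kng1*, the gene of kininogen, the precursor of bradykinin, was 8.66 RPKM in sg*Kmt2c* replicate 1 and at most 1.5 RPKM elsewhere. The clotting factor genes *F7* (41 reads, 4.15 RPKM) and *F5* (46 reads, 1.16 RPKM) were highest in sg*Trp53* replicate 2 and had at most 4 reads in any other line, whereas *F2*, the prothrombin gene, had 10 reads (1.08 RPKM) in sg*Kmt2c* replicate 1 and at most 1 elsewhere. *F10* had at most 2 reads per line.

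The genes of inhibitors and matrix-binding proteins were low throughout, with 14 to 26 reads in all per line. *Itih2*, a heavy chain of the inter-alpha-inhibitor family that binds hyaluronan, was the only one of these 7 genes to reach 1 RPKM, at 1.03 RPKM in sg*Trp53* replicate 2 and 1.66 RPKM in sg*Kmt2c* replicate 2. *Serpinf2*, the gene of the plasmin inhibitor alpha-2-antiplasmin, was highest in sg*Kmt2c* replicate 1 with 9 reads (0.877 RPKM), and *Itih3* in sg*Trp53* replicate 1 with 13 reads (0.713 RPKM). *Serpinc1* (antithrombin), *Itih1*, *Itih4* and *Vtn* (vitronectin) had at most 4 reads in each line. At these depths 3 reads are 4.36e-05% to 8.15e-05% of a library, the upper limit that a count of 0 allows.

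Complement genes differed in their highest line. *C3*, the central component of all complement pathways, was 42.2, 1.94 and 13.3 RPKM in sg*Trp53* against 17.9, 5.76 and 4.24 in sg*Kmt2c*. *C4b*, a component of the classical and lectin pathways, was 68.5, 61.2 and 3.68 RPKM against 1.13, 17.0 and 33.1 RPKM. Both genotypes spanned a wide range in each gene, and the lowest *C4b* line was sg*Kmt2c* replicate 1. *C4b* has a near-identical paralog and a listed length of 13.9% of its longest transcript, so its absolute level is uncertain. *Cfb*, the gene of factor B of the alternative pathway, was 5.89 RPKM (27 reads) in sg*Kmt2c* replicate 1 and at most 0.721 RPKM (3 reads) in the other lines.

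Genes that lie side by side did not always share their lines. With gaps under 200 kb, 21 of the 41 genes fell into 8 clusters. *Apoc2*, *Apoc1* and *Apoe* span 27.6 kb of chromosome 7, and in sg*Kmt2c* replicate 1 they were 609, 0.994 and 2.76 RPKM, whereas in sg*Trp53* replicate 2 they were 0.330, 0.440 and 17.0 RPKM. *Fgg*, *Fga* and *Fgb* span 42.1 kb of chromosome 3 and were all highest in the same line. *Ahsg*, *Fetub* and *Kng1* span 190.0 kb of chromosome 16 and were highest in sg*Trp53* replicate 2, sg*Kmt2c* replicate 2 and sg*Kmt2c* replicate 1, in that order. On chromosome 9, *Apoc3* had its reads in sg*Kmt2c* replicate 1 and *Apoa4* nearly all of its reads in sg*Kmt2c* replicate 3, although the cluster of *Apoa1*, *Apoc3* and *Apoa4* spans 14.9 kb.

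**Figure D4:**
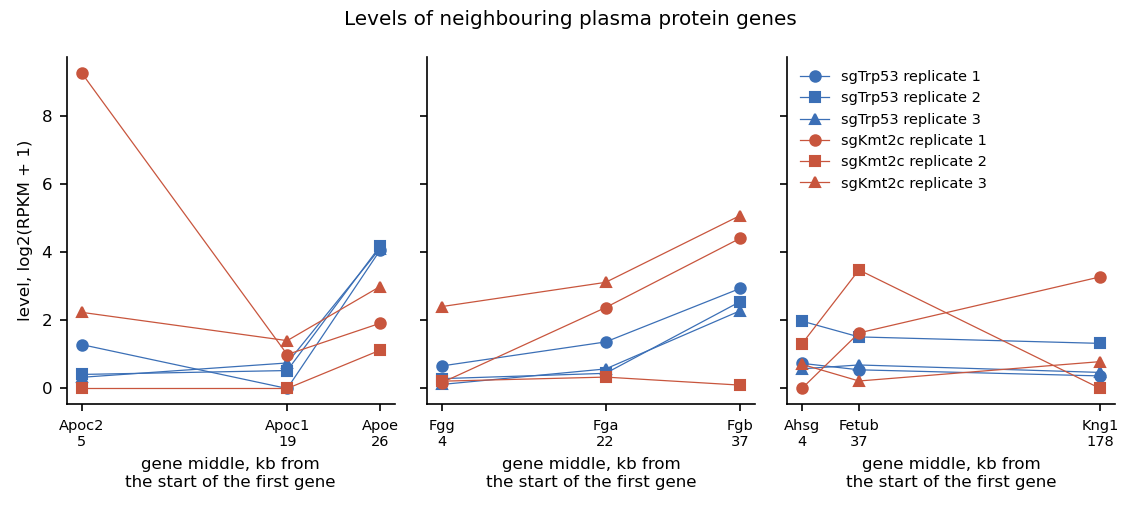
Level, as log2(RPKM + 1), of neighbouring plasma protein genes against the distance of each gene's middle from the start of the first gene of its cluster (kb), with 1 connected set of symbols per line. In the left panel the line with the highest *Apoc2*, sg*Kmt2c* replicate 1 at 609 RPKM, is among the lower lines for *Apoe*, while in the middle panel sg*Kmt2c* replicate 3 is highest at all 3 fibrinogen genes.

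The genotypes were then compared by limma on log2(RPKM + 1) over the 11617 genes with at least 1 RPKM in at least 3 lines, to ask which plasma protein genes differ between *Kmt2c*- and *Trp53*-edited tumors. Of the 41 genes, 15 passed this filter. By limma with Benjamini-Hochberg adjustment over all genes, 0 of the 15 were called at an adjusted p under 0.05, where 0.129% of all genes were called. At an unadjusted p under 0.05 there was 1 gene, *Apoe*, against 8.58% of all genes, and limma voom on the recovered reads also called 0 of the 15. *Apoe* was also the only one of the 15 whose genotypes did not overlap, against 16.2% of all genes in either direction and 10.4% lower in sg*Kmt2c*. These shares are not above the background of all genes. The smallest p of an exact two-sided permutation test of 3 lines against 3 is 0.1, which *Apoe* reached.

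*Apoe* had a log2 fold change (sg*Kmt2c* minus sg*Trp53*) of -2.10 with a 95% interval of -3.21 to -0.98, a limma p of 0.00317 and an adjusted p of 0.322. With any line left out the log2 fold change was between -2.59 and -1.66. Several macrophage genes were also lower in sg*Kmt2c*. Of 15 macrophage and leukocyte markers 6 passed the filter. Of these, 5 (*Lyz2*, *Csf1r*, *C1qa*, *C1qb* and *C1qc*) were lower in every sg*Kmt2c* line than in every sg*Trp53* line. Their unadjusted limma p was under 0.05 and their adjusted p-values were 0.160 to 0.440. Among all genes tested, 10.4% were lower in sg*Kmt2c* without overlap, and 620 of 11617 were lower at an unadjusted limma p under 0.05. Genes that passed the filter through high sg*Trp53* levels are more apt to be lower in sg*Kmt2c*, so this count is a description. The summed level of the 15 markers was 32.1 to 79.0 RPKM in the sg*Trp53* lines and 5.91 to 19.2 RPKM in the sg*Kmt2c* lines. The lysozyme gene *Lyz2* was 29.0, 17.1 and 45.3 RPKM against 0, 0.214 and 12.4 RPKM. Within sg*Trp53*, *Apoe* differed little between replicates 1 to 3, at 15.5, 17.0 and 16.1 RPKM from 131, 125 and 154 reads. The part of macrophages in the *Apoe* difference was not tested.

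The other differences were wide and often rested on 1 line. *Apoc2* had the largest log2 fold change, 3.15 (95% interval -2.07 to 8.38), and *Apob* one of 2.11 (-4.34 to 8.55). Without sg*Kmt2c* replicate 1 these were 0.44 and -0.70, and *Hpx* went from 1.47 to -0.53, *Rbp4* from 1.37 to 0.26 and *Trf* from 0.58 to -0.999. *Orm1* went the other way, from 0.97 with all lines to 2.31 without that line, when both remaining sg*Kmt2c* lines were above every sg*Trp53* line. Its limma adjusted p was then 0.187. *Fga* (1.14), *Fetub* (0.86), *Fgb* (0.60) and *Alb* (0.55) had higher means in sg*Kmt2c*, and *C4b* (-1.32), *Hp* (-1.06), *C3* (-0.48) and *Apoa2* (-0.21) lower ones, each as a log2 fold change whose 95% interval included 0. The median over the 15 genes was 0.60 with all lines and -0.07 without sg*Kmt2c* replicate 1, beside medians of -0.09 and -0.04 over all genes tested. Genes that passed the filter through a high level in 1 genotype are more apt to differ, so the median is a description.

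**Figure D5:**
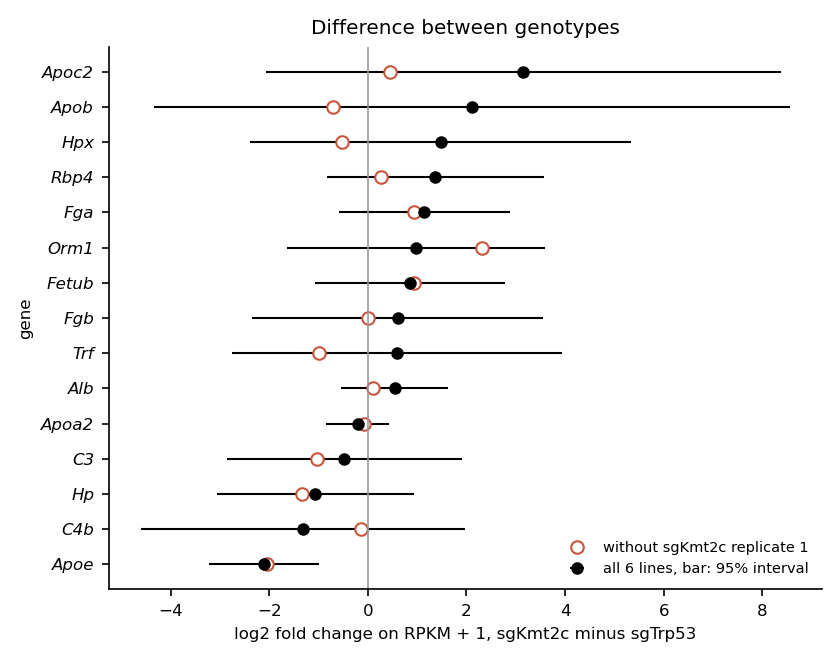
Log2 fold change on the RPKM + 1 scale (sg*Kmt2c* minus sg*Trp53*) of the 15 plasma protein genes tested, with all 6 lines (filled, bars are 95% intervals from limma) and without sg*Kmt2c* replicate 1 (open). Only the interval of *Apoe* leaves out 0, and the open symbols of *Apoc2*, *Apob*, *Hpx*, *Rbp4* and *Trf* lie well to the left of the filled ones.

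The genes without overlap between the genotypes differed with the line left out. Without sg*Kmt2c* replicate 2, which was lowest or tied in 17 of the 31 detected genes, 8 of the 15 genes did not overlap between the genotypes, where the share of all genes was 27.9%. *Alb*, *Apob*, *Apoc2*, *Fga*, *Fgb* and *Rbp4* were then higher in both remaining sg*Kmt2c* lines than in any sg*Trp53* line, and *Apoe* and *Apoa2* lower. Replicate 2 was singled out after its low values in these same genes had been seen. Leaving it out favours higher sg*Kmt2c* levels by that choice, so the counts without it are a description and do not measure an excess. By limma in that fit, 0 of the 15 and 0 of all genes were called at an adjusted p under 0.05. At an unadjusted p under 0.05 there were 6 of the 15 (*Apoe*, *Fgb*, *Fga*, *Apob*, *Rbp4* and *Apoc2*, with adjusted p-values of 0.256 to 0.562), against 8.86% of all genes. Without sg*Kmt2c* replicate 1 the genes that did not overlap were *Apoe* and *Orm1*, 2 of 15, against 26.8% of all genes, and the same 2 had an unadjusted limma p under 0.05, against 9.25% of all genes.

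Hepatocyte transcription factor genes had their highest levels in the same line as *Apob*. *Hnf4a* was 24.7, 3.49 and 15.8 RPKM in sg*Trp53* against 1186, 0.629 and 170 in sg*Kmt2c*, the same highest and lowest lines as *Apob*. The listed length of *Hnf4a*, 431 bases, is 9.88% of its longest transcript of 4362 bases, so its absolute level is uncertain. *Foxa2* was 23.6 RPKM in sg*Kmt2c* replicate 1 and at most 0.771 RPKM in the others, and the nuclear receptor gene *Nr1i2* was 19.2 RPKM against at most 0.385 RPKM. *Foxa1* was lowest in this line, at 0.133 RPKM. Of 20 such factors 15 reached 1 RPKM in sg*Kmt2c* replicate 1 and 7 to 10 in the other lines, and of the 9 that passed the filter 0 differed between genotypes at an unadjusted limma p under 0.05. The bile duct markers *Krt19* and *Krt7* were also high in this line, at 1866 and 990 RPKM, where the other lines had at most 223 and 94.7 RPKM. Of 11 bile duct and progenitor markers, 8 reached 1 RPKM in this line and 4 to 9 in the others, and their summed level was 3543 RPKM against 177 to 1172 RPKM. The 14 fibroblast and stellate cell markers summed to 0.282 RPKM there and to 18.8 to 1103 RPKM elsewhere, and 0 of the 5 that passed the filter had an unadjusted limma p under 0.05. Of 10 endothelial and 6 blood cell markers 0 passed the filter. The 20 hepatocyte enzyme genes summed to 30.2 to 33.8 RPKM in sg*Trp53* and to 123, 119 and 65.7 RPKM in sg*Kmt2c*, and the members differed: *Fah* was highest in sg*Kmt2c* replicate 1 (35.2 RPKM, at most 5.63 RPKM elsewhere), while *Ass1* was 2.00 RPKM there and 89.9 RPKM in sg*Kmt2c* replicate 2. Of the 4 enzyme genes that passed the filter 0 were called by limma, and 1, *Ttc36*, had an unadjusted p under 0.05, against 8.58% of all genes. Whether these differences in cell state or cell content bear on the plasma protein levels was not tested.

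Other genes of the same pathways gave a mixed picture. Of 52 other liver plasma protein genes 12 passed the filter, 4 with a higher and 8 with a lower mean in sg*Kmt2c*, and 0 were called by limma. Their highest levels were those of *Selenop*, the gene of a selenium carrier (32.2, 24.3 and 84.2 RPKM in sg*Trp53*, 789, 28.6 and 332 RPKM in sg*Kmt2c*), and *Gc*, the gene of vitamin D-binding protein (567, 76.3 and 216 RPKM against 666, 5.12 and 147 RPKM). Both were again highest in sg*Kmt2c* replicate 1. *Cp*, the gene of the copper carrier ceruloplasmin, was 183, 276 and 140 RPKM against 42.6, 66.6 and 87.6 RPKM, with no overlap, a log2 fold change of -1.60 and a limma adjusted p of 0.322. Among 15 genes of lipoprotein assembly and uptake, 14 were tested and 0 were called. At an unadjusted limma p under 0.05, 3 had higher means in sg*Kmt2c*, *Lrp1* and *Nr1h3* among them, and 4 had lower ones (*Lpl*, *Abca1*, *Mttp* and *Sort1*). *Mttp*, which loads lipid onto apolipoprotein B, had a log2 fold change of -0.91 (limma adjusted p = 0.528) in a comparison where the *Apob* interval spanned 0. Of 10 genes of acute-phase signaling, all tested, 0 were called and 3 (*Il1r1*, *Il1rap* and *Jak1*) were lower in sg*Kmt2c* at an unadjusted limma p under 0.05. Of all 11617 genes tested, 377 were higher and 620 lower in sg*Kmt2c* at that unadjusted p, 8.58% in either direction. The counts of these short lists are a description.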

How the data were processed

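RNA from 6 liver tumor-derived lines was analysed, with genotypes and replicate numbers taken from the labels. Per the paper's methods, the authors trimmed reads with Trimmomatic, aligned them to GRCm38 with STAR and counted them per gene with HTSeq. The submitters' processing notes also name DESeq2. The authors deposited RPKM values, which divide by a single transcript length per gene. Of 21065 rows 209 had no value, and 6 columns of other samples were not used. The authors' table of their DESeq2 comparison (mean, log2 fold change, statistic and p-values) was not used.

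Reads were recovered as RPKM times length in steps of 1 read, which gave whole numbers for 100% of values (tolerance 0.05 read). They are given beside RPKM and entered limma voom only. The main test was limma 3.58.1 (R 4.3.3, lmFit, eBayes with trend) on log2(RPKM + 1), which understates changes of low genes, with genotype as the only term. Genes under RPKM 1 in more than 3 of the 6 lines were left out, with Benjamini-Hochberg adjustment. The script was tested on simulated data. Alternatives changed the pseudocount, filter, scaling, trend, model, threshold or lines. Named in full were genes called, at an unadjusted p under 0.05, at RPKM of at least 10 in a line or without overlap between genotypes. Genes of other lists were named by highest level or lowest p, and a few are not reported here. The counts of highest lines, of genes with a line left out and on the longest length were chosen after seeing the data. Members and lists were chosen with earlier results of these data known. Lines came from different mice, and the libraries shared the lanes of a flow cell.

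Gene positions are GRCm38. Promoters are from RefSeq (GRCm38.p6). Longest transcripts are from GENCODE M1, by gene identifier. Figures were drawn with matplotlib 3.10.9.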

Additional observations from a re-analysis of the deposited data

How the results depend on the processing

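No plasma protein gene was called by limma under any alternative with an adjusted p, and 1 was called at an unadjusted p under 0.05 with all lines. That unadjusted count was 6 when sg*Kmt2c* replicate 2 was left out, 2 when replicate 1 was, and 2 with sg*Kmt2c* replicates 2 and 3 as 1 line. Over all genes, 15 were called. The number was 6 with pseudocount 0.1, 5 with no filter on low values, 4 with limma voom on recovered reads, 33 at an adjusted p under 0.1 and 997 at an unadjusted p under 0.05. It was 0 to 8 with 1 line left out (8 without sg*Kmt2c* replicate 1, and 563 to 1477 at an unadjusted p under 0.05). With sg*Kmt2c* replicates 2 and 3, whose line names share a number, as 1 line it was 0 by limma (1053 at an unadjusted p under 0.05). With a replicate block it was 0 (1085 at an unadjusted p under 0.05). Deviations of same-numbered lines correlated at 0.19, 0.40 and 0.03, not every line correlated best with its own number, and the lines share only a number.

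Of 255 log2 fold changes of the 15 genes under alternatives, 245 kept their direction and 10 changed it. *Apoa2* was 0.0139 with quantile normalization, and *Fgb* -0.0716 with pseudocount 0.1 and -0.0483 with limma voom. With 1 line left out the log2 fold change ranged from -0.70 to 5.19 for *Apob*, -1.51 to 0.43 for *C3*, -0.33 to 2.15 for *Fgb*, -0.53 to 2.80 for *Hpx* and -0.999 to 1.83 for *Trf*. The lowest values of *Apob*, *Hpx* and *Trf* were those without sg*Kmt2c* replicate 1. Genes without overlap between genotypes numbered 1 to 8 with 1 line left out.

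As a share of summed RPKM, the plasma protein genes made up 0.0430% and 0.0327% in sg*Trp53* replicates 2 and 3 and 1.09%, 0.0230% and 0.0720% in sg*Kmt2c* replicates 1 to 3. This share depends on the listed lengths. In sg*Kmt2c* replicate 1, *Apob* gave 4385 of the 5955 RPKM summed, and its level was 352 RPKM on its longest length. Without the gene with most reads in each line, the shares of reads were 0.0236%, 0.0234% and 0.0209% for sg*Trp53*, and 0.179%, 0.0109% and 0.0407% for sg*Kmt2c*. The cause was not tested.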
